A study of Drosophila melanogaster with 2 samples.

Results

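Peaks of CG3847-eGFP were described at 9 genes of the insulin and target of rapamycin (TOR) pathway of Drosophila melanogaster, out of 13968 annotated protein-coding genes. The genes were chosen by name, as the core of the pathway from the receptor to the translational outputs. No measured value entered the rule, but the choice was made with earlier results of these data known. They are InR, chico, Akt, foxo, gig, Rheb, Tor, S6k and Thor, and the annotation lists Tor as mTor. Chromatin immunoprecipitation with an antibody to GFP was performed on whole embryos collected between 0 and 24 h, from transgenic flies in which the protein encoded by CG3847 carries eGFP, an enhanced green fluorescent protein. All samples belong to 1 group with 2 biological replicates, and no untreated or untagged group was analysed here, so no comparison between conditions was possible and signal that does not depend on CG3847 cannot be told apart from its binding. Embryos of every stage in the collection were pooled with all their tissues, so a weak peak in all cells and a strong peak in few cells cannot be told apart either.

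Insulin-like peptides bind the receptor tyrosine kinase InR, which acts through the adaptor chico and phosphatidylinositol 3-kinase (PI3K) to activate the kinase Akt. Akt holds the transcription factor foxo out of the nucleus and restrains the complex of gig (the fly TSC2) with Tsc1, which is the GTPase-activating brake on Rheb. Free of this brake, Rheb activates the kinase Tor in TOR complex 1, which phosphorylates S6k and the translational repressor Thor (the fly 4E-BP). In flies the pathway couples nutrition to cell growth and body size, and InR and Thor are known targets of foxo.

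For each gene every peak was taken whose summit lay within 500 bp of a transcription start site (TSS) or inside the gene. The optimal set is the authors' main list of reproducible peaks. It was made from the pooled replicates at a global irreproducible discovery rate (IDR) of at most 0.01. As a rule, a low IDR means that a peak ranked high, and alike, in both sets of data compared. Ranked tables list weaker peaks as well. Signal is the authors' value for a peak. Its scale is not stated in the labels or file descriptions, and it is mostly higher in the pooled tables than in those of single replicates. Positions are on assembly dm6, counted from 1, and distances to a TSS are negative upstream.

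A peak of the optimal set stood within 500 bp of a TSS at 7 of the 9 genes (77.8%), against 31.0% of all protein-coding genes. The genes were InR, Akt, foxo, Rheb, mTor, S6k and Thor. When summits inside the gene were also counted, the same 7 genes had a peak, against 35.4% of all protein-coding genes. In the thresholded set of replicate 1 there were 5 of the 9 genes with a promoter peak, against 23.8%, and in that of replicate 2 there were 5 as well, against 26.4%. Rheb, mTor and foxo were in both, Akt and chico in the set of replicate 1 only, and S6k and Thor in that of replicate 2 only. A ranked peak of any strength lay within 500 bp of a TSS at 8 of the 9 genes, against 78.4%, so a weak peak near a start is the rule for genes in general.

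**Figure D1:**
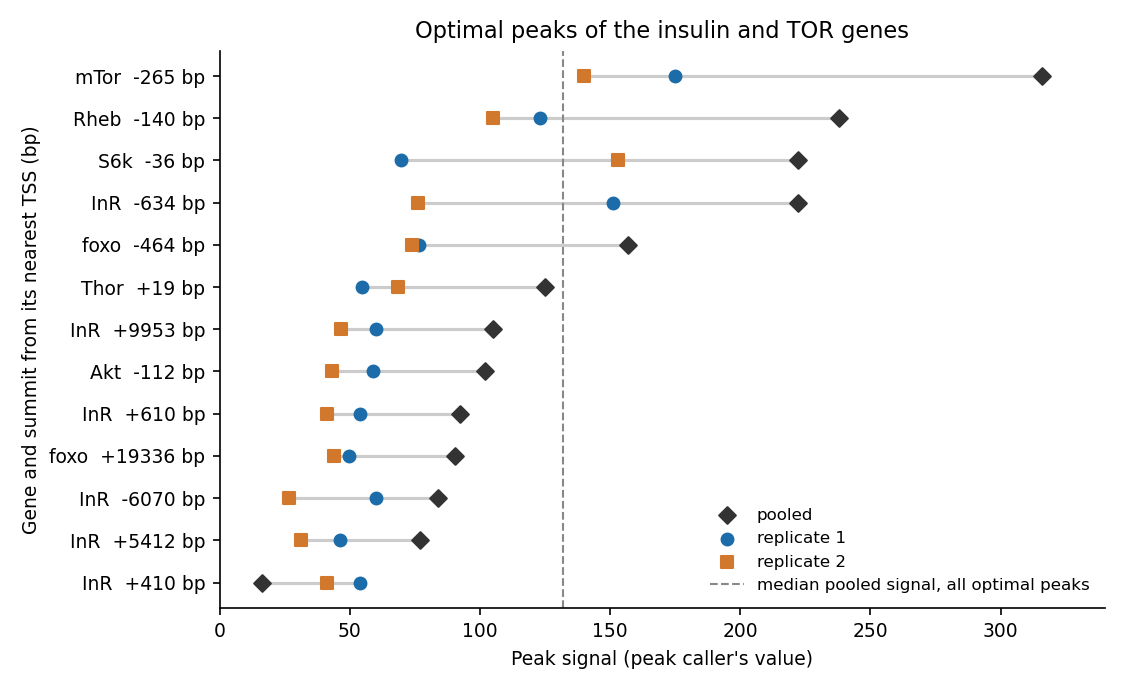
Signal of the 13 optimal peaks of the 9 genes, with 1 row per peak; diamonds show the pooled signal, circles and squares the ranked signal of replicates 1 and 2, and the dashed line the median pooled signal of 132 over all optimal peaks. The mTor peak is the highest at 316, and 5 peaks lie above the median.

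The sequences under the summits are shown here because the positions of motif matches, and their absence, are described further on. Each is the part of the 200 bp around a summit that holds no annotated exon, read from the Release 6 genome in the direction of the gene. Capitals mark matches to the motifs named further on or the arms of an inverted repeat.
mTor promoter, chr2L:13004115-13004314, plus strand: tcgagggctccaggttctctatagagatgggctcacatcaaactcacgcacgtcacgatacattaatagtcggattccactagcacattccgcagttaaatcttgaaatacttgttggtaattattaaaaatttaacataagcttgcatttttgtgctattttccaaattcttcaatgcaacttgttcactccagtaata
Rheb promoter, chr3R:5568681-5568880, plus strand: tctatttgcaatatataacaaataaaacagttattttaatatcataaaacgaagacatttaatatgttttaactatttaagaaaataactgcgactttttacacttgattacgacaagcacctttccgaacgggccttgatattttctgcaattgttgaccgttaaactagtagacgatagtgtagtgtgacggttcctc
S6k promoter, chr3L:5810932-5810972, minus strand: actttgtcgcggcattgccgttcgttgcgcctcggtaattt
foxo promoter, chr3R:14056381-14056580, plus strand: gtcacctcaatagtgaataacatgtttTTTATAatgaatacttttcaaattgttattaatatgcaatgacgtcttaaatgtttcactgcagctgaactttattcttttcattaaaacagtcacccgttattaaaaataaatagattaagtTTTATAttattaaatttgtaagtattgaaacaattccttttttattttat
Thor promoter, chr2L:3478353-3478433, plus strand: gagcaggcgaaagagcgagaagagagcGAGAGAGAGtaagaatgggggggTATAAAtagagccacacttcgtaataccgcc
Akt promoter, chr3R:16099016-16099215, plus strand: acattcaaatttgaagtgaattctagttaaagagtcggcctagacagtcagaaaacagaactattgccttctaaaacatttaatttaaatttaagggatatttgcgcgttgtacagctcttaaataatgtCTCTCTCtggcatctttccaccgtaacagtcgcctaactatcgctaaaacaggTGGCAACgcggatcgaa
InR intron, chr3R:21590725-21590924, minus strand: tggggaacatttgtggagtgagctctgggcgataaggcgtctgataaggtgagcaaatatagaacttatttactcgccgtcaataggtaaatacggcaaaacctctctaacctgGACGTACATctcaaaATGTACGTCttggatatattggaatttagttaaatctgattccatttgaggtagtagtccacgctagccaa
InR distal promoter, chr3R:21619322-21619498, minus strand: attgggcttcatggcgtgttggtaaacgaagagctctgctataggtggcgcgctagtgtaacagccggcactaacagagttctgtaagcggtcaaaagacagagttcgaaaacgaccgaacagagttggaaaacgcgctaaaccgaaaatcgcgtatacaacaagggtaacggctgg
chico promoter, chr2L:10247079-10247248, minus strand: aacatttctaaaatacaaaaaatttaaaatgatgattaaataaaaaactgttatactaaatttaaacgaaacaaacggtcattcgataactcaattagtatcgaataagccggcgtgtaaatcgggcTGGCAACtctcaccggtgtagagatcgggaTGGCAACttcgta

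InR, the receptor (FBgn0283499, chr3R:21570248-21619321, minus strand, 4 annotated TSSs), held 6 of the 13 optimal peaks. Its strongest had a pooled signal of 222 and lay in an intron at chr3R:21590810-21590911, 634 bp upstream of the TSS at 21590191. The ranked signal there was 151 in replicate 1 and 76.0 in replicate 2, and this was the only InR peak found in the conservative set, which compares the replicates with each other, and in both replicate sets. Of the others, a peak of 105 lay in a coding exon 9953 bp downstream of a TSS. Peaks of 92.1, 83.8 and 77.0 lay in introns, and the sixth, of 16.3, lay 410 bp downstream of the TSS at 21592121. The last overlapped the peak of 92.1, whose summit was 610 bp downstream of the same TSS, so that the promoter call of InR in the optimal set rests on the weaker of overlapping peaks. Only 2.05% of the 3611 optimal peaks near a TSS were weaker than it, and InR lost its promoter call when only the strongest of overlapping peaks was kept and in the conservative set. At all 6 peaks the signal was higher in replicate 1 than in replicate 2. For the peak of 16.3 these replicate values are those of its stronger neighbour, the peak of 92.1.

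The outermost start of InR had a stronger peak that is absent from the optimal set. In the pooled ranked table a peak of 212 lay at chr3R:21619204-21619593, 78 bp upstream of the TSS at 21619321, with 101 in replicate 1 and 114 in replicate 2. It passed the IDR threshold in the pooled table and in those of both replicates, with −log10 of the IDR of 4.11 and 4.84 in the replicates. The first intron held 3 more peaks past the threshold in the pooled table, with pooled signals of 131, 126 and 104. They too are absent from the optimal set. In the replicates, the peak of 126 passed the threshold in both, and the peaks of 131 and 104 in replicate 1 only. Thus 10 of the 39 pooled ranked peaks of InR passed the threshold, and 4 of these 10 were in none of the thresholded sets. Over the whole pooled table, 202 of the 6376 ranked peaks past the threshold were absent from the optimal set. An annotated transposable element of the FB family spans 7686 to 10257 bp downstream of the outermost start, beyond the 3 intronic peaks. Per the deposited file descriptions a list of excluded regions entered the thresholded sets; whether it covers this end of InR was not tested.

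**Figure D2:**
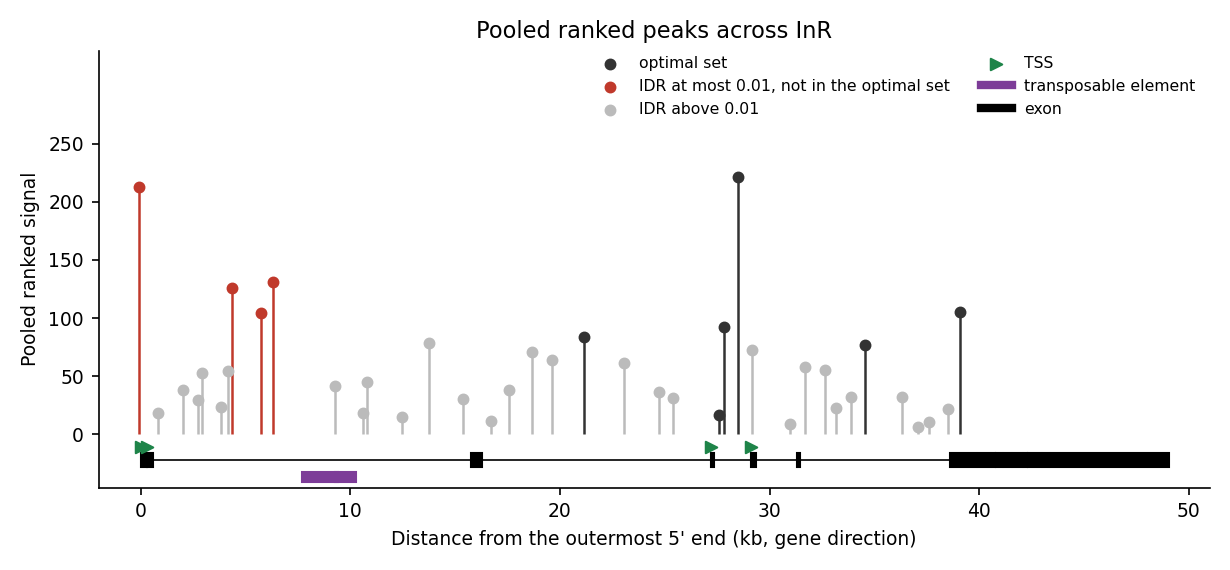
Pooled ranked signal of each peak across InR, by distance in kb from the outermost 5′ end in the direction of the gene; below the axis are the exons, the 4 TSSs and the annotated transposable element. The peak of 212 at the outermost start and the 3 peaks of 104 to 131 after it passed the IDR threshold without being in the optimal set, whereas the optimal peaks lie farther into the gene.

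chico, the insulin receptor substrate (FBgn0024248, chr2L:10242512-10247078, minus strand), had no peak in the optimal, conservative or replicate 2 sets and no ranked peak in the pooled table. Replicate 1 had 1 thresholded peak at its start, with a signal of 56.6 at chr2L:10246969-10247328 and a summit lying 71 bp upstream of the start, and replicate 2 had no ranked peak there. The gene lies in a stretch of 98034 bp without any pooled ranked peak, from 10205946 to 10303980, which was the fourth longest of 21524 gaps between ranked summits on this arm, where the median gap was 683 bp. Within it the ranked table of replicate 1 held 25 peaks and that of replicate 2 held 4, with the highest at 56.6 and 39.0. The stretch holds 32 protein-coding gene starts, of which 7 had a ranked peak within 500 bp in replicate 1. REPTOR-BP, a partner of a transcription factor restrained by TOR, starts in it too, 17047 bp from the start of chico, and had no ranked peak at its start in the pooled or replicate tables. For both genes the pooled tables therefore cannot be read as lack of binding; why the stretch is empty was not tested.

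**Figure D3:**
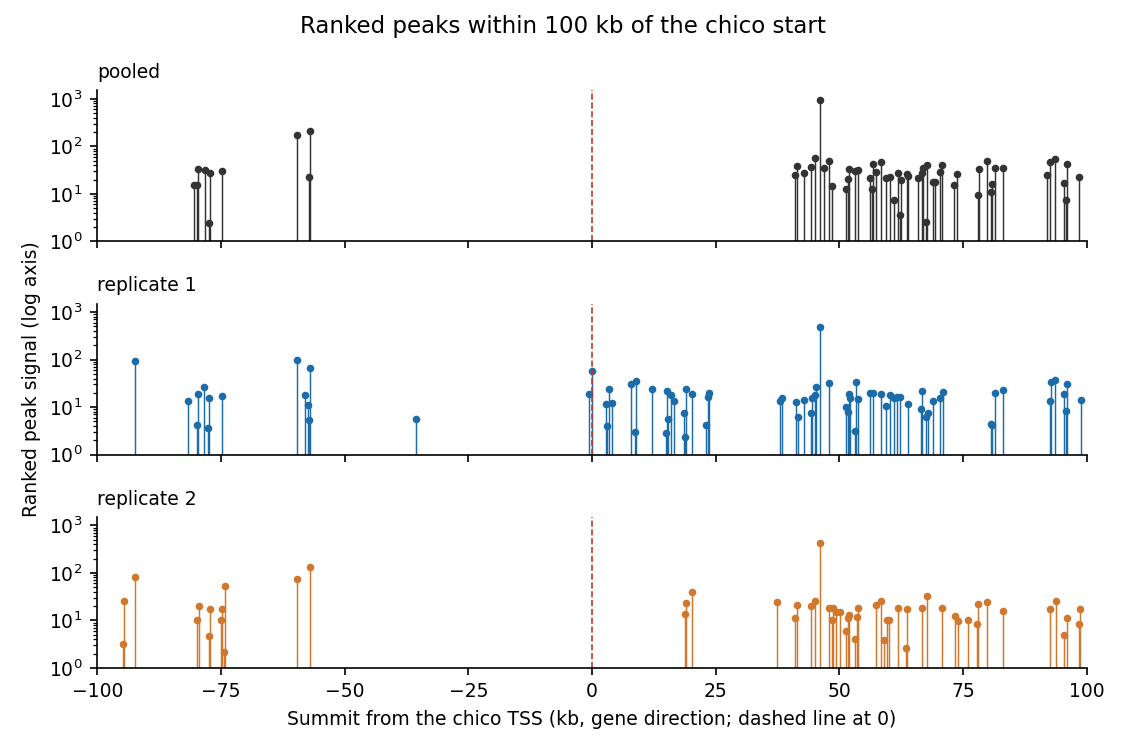
Signal of ranked peaks, on a log axis, within 100 kb of the chico TSS (dashed line), by distance in kb in the direction of the gene, for the pooled table and each replicate. The pooled table is empty over 98034 bp around the gene, where replicate 1 has 25 ranked peaks and replicate 2 has 4.

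Akt, the kinase (FBgn0010379, chr3R:16099228-16105670, plus strand), had 1 optimal peak, the weakest of the single promoter peaks. Its pooled signal was 102 at chr3R:16098921-16099310, with 58.8 in replicate 1 and 43.1 in replicate 2, and its summit lay 112 bp upstream of the TSS. The replicate 2 value is that of the strongest overlapping ranked peak, whose summit lay at −291 bp from the TSS. Another replicate 2 peak, at −77 bp, had 34.8. The optimal peak passed the threshold in the set of replicate 1 only, and 25.5% of the optimal peaks near a TSS were weaker. The start of Mhcl, a gene on the other strand 467 bp away, was within 500 bp of the same summit.

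foxo, the transcription factor that Akt restrains (FBgn0038197, chr3R:14056945-14087978, plus strand), had a promoter peak of 157 at chr3R:14056286-14056675. The ranked signals were 76.4 in replicate 1 and 73.9 in replicate 2, the closest agreement of the 13 peaks, with a log2 ratio of 0.05. Its summit lay 464 bp upstream of the first TSS, near the edge of the 500 bp window, and no other gene starts within that distance. The signal was close to the median of 154 over the optimal peaks near a TSS, of which 51.1% were weaker. A further optimal peak of 90.4 lay in an intron 19336 bp downstream of a TSS, with 49.5 in replicate 1 and 44.0 in replicate 2, and was in the thresholded set of replicate 2 but not in that of replicate 1. A replicate 1 peak of 64.8 in an intron, 4227 bp downstream of a TSS, had 20.3 in replicate 2 and was in no other set. The thresholded set of replicate 1 also held a peak of 31.9 at chr3R:14056507-14056866, which overlapped the promoter peak. Its summit lay 258 bp upstream of the first TSS.

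gig, which encodes the fly TSC2 (FBgn0005198, chr3L:20129181-20139010, plus strand), had no thresholded peak in any set. Its 14 pooled ranked peaks had signals of 8.47 to 63.7 with a median of 23.3, beside a median of 23.1 over all 123663 pooled ranked peaks. None passed the IDR threshold. The strongest lay in a coding exon 1762 bp downstream of the TSS, with 19.7 in replicate 1 and 34.5 in replicate 2. Unlike chico, gig was thus covered by ranked peaks in the pooled table and in both replicates, which held 9 and 13.

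Rheb, the GTPase that gig inhibits (FBgn0041191, chr3R:5568921-5570491, plus strand), had the promoter peak with the next to highest signal of the 9 genes. The pooled signal was 238 at chr3R:5568586-5568975, with 123 in replicate 1 and 105 in replicate 2, and the summit lay 140 bp upstream of the TSS. It was found in the conservative and both replicate sets, and 71.6% of the optimal peaks near a TSS were weaker. CG2931 starts on the other strand, 306 bp from the start of Rheb, and shares the peak.

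Tor, the kinase of both TOR complexes (mTor, FBgn0021796, chr2L:13004480-13013197, plus strand), had the strongest peak of the 9 genes. The pooled signal was 316 at chr2L:13004139-13004339, with 175 in replicate 1 and 140 in replicate 2, and the summit lay 265 bp upstream of the TSS. It ranked 637 among the 3611 optimal peaks near a TSS, 82.4% of which were weaker, and it was in the conservative and both replicate sets. Vha68-1, which encodes a subunit of the vacuolar proton pump, starts on the other strand 373 bp from the start of mTor. The summit is within 500 bp of both starts and lies closer to that of Vha68-1. The promoter call of mTor was lost with a TSS window of 200 bp and where the peak itself had to hold a TSS. The protein-coding genes with promoter signals nearest to that of mTor were RpS5a, TER94, Dh31-R, Fib and CG3085, all at 316 to 317 and all with a promoter peak in both replicate sets.

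S6k, the ribosomal protein S6 kinase (FBgn0283472, chr3L:5797549-5810931, minus strand), had a peak of 222 at chr3L:5810917-5811022, with its summit 36 bp upstream of the TSS. The ranked signal was 69.6 in replicate 1 and 153 in replicate 2, so replicate 2 was higher and the log2 ratio of replicate 1 to replicate 2 was −1.14. The peak was not in the thresholded set of replicate 1. kri starts on the other strand only 42 bp away, and the 41 bp between both starts are shown in full among the sequences. Of the optimal peaks near a TSS, 68.7% were weaker.

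Thor, the translational repressor 4E-BP (FBgn0261560, chr2L:3478434-3479612, plus strand), had a peak of 125 at chr2L:3478258-3478647 whose summit lay 19 bp downstream of the TSS, in the 5′ untranslated region. The ranked signal was 54.7 in replicate 1 and 68.5 in replicate 2, and the thresholded set of replicate 2 held the peak while that of replicate 1 did not. Of the optimal peaks near a TSS, 38.2% were weaker. The start of no other gene lay within 500 bp.

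**Figure D4:**
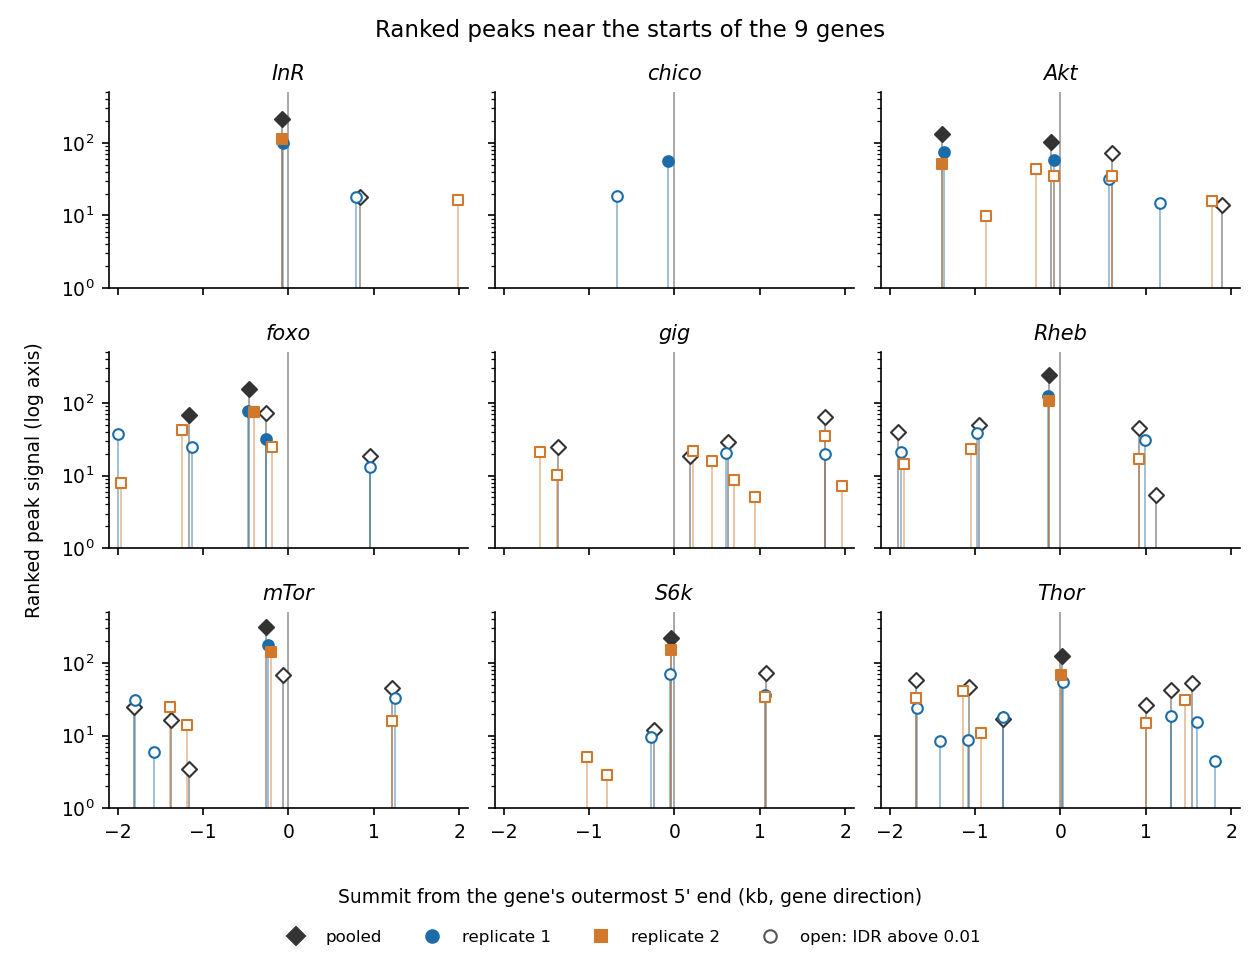
Ranked peaks within 2 kb of the outermost 5′ end of each of the 9 genes, by distance in kb in the direction of the gene and signal on a log axis; filled symbols passed an IDR of 0.01, and shapes give the pooled table and the replicates. Each gene has a filled pooled peak within 500 bp of the 5′ end except chico, where replicate 1 alone has one, and gig, where all symbols are open. Filled pooled peaks also lie farther upstream, at −1384 bp from Akt with 133 and at −1163 bp from foxo with 67.4. These are optimal peaks outside the 500 bp window and are not counted for the genes.

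Within the optimal set the order of the pooled promoter signals was thus mTor at 316, Rheb at 238, S6k at 222, foxo at 157, Thor at 125, Akt at 102 and InR at 16.3, with no promoter peak at chico or gig. With the ranked peak of 212 at its outermost start, which the optimal set lacks, InR would stand between S6k and foxo. In replicate 1 alone mTor and Rheb led and S6k at 69.6 stood below foxo at 76.4, whereas in replicate 2 S6k at 153 stood above mTor at 140. Thor and Akt also changed places between the replicates. mTor, Rheb and foxo stood in the same order in both. The summit lay upstream of the nearest TSS at 5 of the 7 promoter peaks, as it did at 80.6% of all optimal peaks near a TSS. Starts of at least 2 protein-coding genes were within 500 bp at 4 of the 7, namely those of Akt, Rheb, mTor and S6k, beside 37.4% of all such peaks, and at these the peak cannot be assigned to either gene.

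A peak in the conservative and both replicate sets overlapped 4 of the 13 peaks by at least 1 bp, beside 54.8% of all 6148 optimal peaks. They were the InR intronic peak of 222 and the promoter peaks of mTor, foxo and Rheb. For single sets the counts were 11 of 13 in the conservative set beside 87.5%, 8 of 13 in replicate 1 beside 67.9%, and 7 of 13 in replicate 2 beside 67.4%. The log2 ratio of replicate 1 to replicate 2 had a median of 0.36 and an SD of 0.57 over the 13 peaks, beside a median of 0.18 and an SD of 0.54 over 6067 optimal peaks with a ranked peak in both replicates. The overlapping InR peaks of 92.1 and 16.3 took their values from the same ranked peak in each replicate and so enter the median with the same ratio. Replicate 1 also had a weaker ranked peak of 10.45 close to the summit of the peak of 16.3. Signal was higher in replicate 1 at all the peaks but those of S6k and Thor.

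Of 69 other genes listed for the pathway, 67 matched the annotation, and 29 of them (43.3%) had an optimal summit within 500 bp of a TSS, beside the 31.0% of all protein-coding genes. In both replicate sets 21 had one. With only the outermost start of each gene counted there were 26, and sgg and REPTOR, named below, were among the genes lost. The Lpin peak named below also lies at an inner start. None of 10 genes for ligands and secreted binding proteins had a promoter peak, which took in Ilp1 to Ilp8, Sdr and ImpL2; ImpL2, a secreted protein that binds insulin-like peptides, had optimal peaks inside the gene only. In the receptor-proximal and PI3K branch there were 7 of 11, led by the adaptor Shc at 1939, whose peak is near the start of Atat too, the kinase sgg at 627 and Pi3K21B, the regulatory subunit of PI3K, at 469. Pdk1, a kinase that phosphorylates Akt, had no optimal peak.

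Among the other subunits of the TOR complexes 1 of 5 had a promoter peak, namely Sin1 of complex 2 at 127, near the start of CG17385 too, while raptor, rictor and Lst8 had no optimal peak. PRAS40, an inhibitor of TOR complex 1, had 6 optimal peaks inside the gene and none at a start. The count was 1 in the set of replicate 1 and 3 in that of replicate 2, where raptor and PRAS40 had a promoter peak as well. Of 8 genes for the partner of gig and the brakes upstream of it, 5 had one. Sesn led at 669, near the start of CG46429 too. SNF4Agamma, a subunit of the AMP-activated kinase, had 210 and Tsc1 had 187, while AMPKalpha had no optimal peak. Tsc1 had a promoter peak in both replicate sets, within 500 bp of the start of GatB too, whereas gig had a peak in none. In amino acid sensing 8 of 19 genes had a promoter peak, led by Lamtor3 at 1021, Wdr24 at 620 and RagC-D at 246, with 5 in the set of each replicate and 3 in both; RagA-B, the partner of RagC-D, had no optimal peak. All 8 of these promoter summits also lay within 500 bp of the start of another gene. Of 14 outputs 8 had one, led by REPTOR at 890, the phosphatidate phosphatase gene Lpin at 641 and eIF4E1, which encodes the cap-binding protein that Thor inhibits, at 221. RpS6, whose protein S6k phosphorylates, had a promoter peak of 109, near the starts of CR33222 and snoRNA:Or-aca2 too. The outputs with a promoter peak were 5 in the set of replicate 1 and 8 in that of replicate 2, and the 14 include REPTOR-BP, in the empty stretch with chico.

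**Figure D5:**
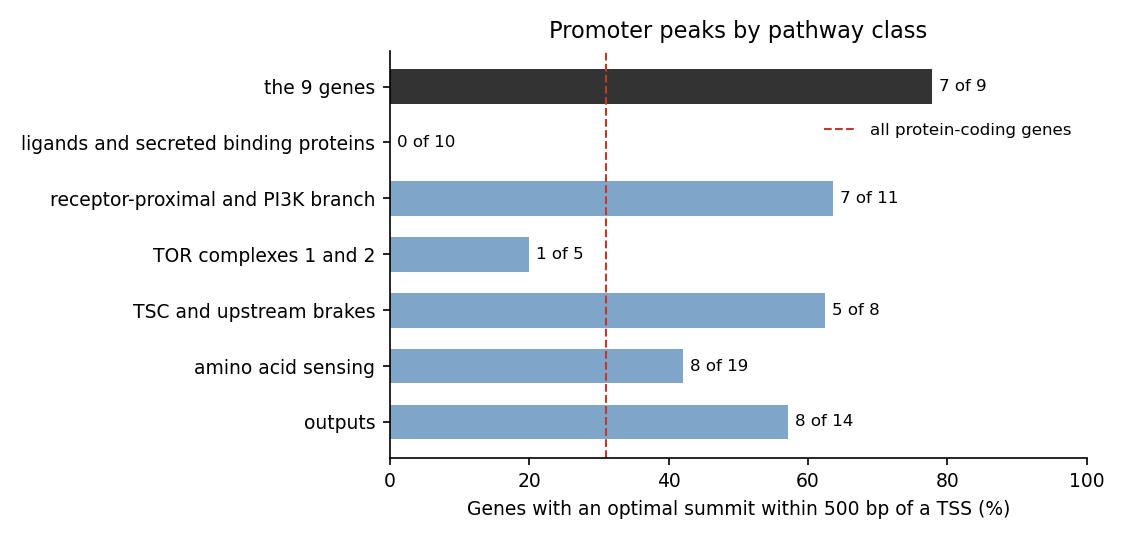
Percent of genes with an optimal summit within 500 bp of a TSS, for the 9 genes and for 6 classes of other pathway genes, with counts at the bars; the dashed line is the 31.0% of all protein-coding genes. The bars run from 0 of 10 for ligands to 7 of 9 for the 9 genes.

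Exact letters of 7 motifs were searched on both strands in the 200 bp around each summit. The TATA letters TATAAA were under 4 of the 13 peaks (InR at 83.8, both of foxo and Thor), beside 30.3% of all optimal peaks and 29.1% of windows of the same length at gene starts. At Thor they lay 28 bp upstream of the TSS, where a TATA box stands in promoters that have one, and at foxo 411 and 534 bp upstream. The repeat GAGAGAG, which the GAGA factor binds, was under 2 of 13, beside 3.51% of optimal peaks and 3.67% of gene starts. It lay 79 bp upstream of the TSS at Akt, and in overlapping copies 49 and 51 bp upstream at Thor. GTAAACAA, the letters that forkhead factors such as foxo bind, was under 1 of 13, beside 2.81% and 3.56%, and it was Thor, 80 bp downstream of the summit and 11 bp downstream of the second of the 2 annotated starts of Thor; the other distances at Thor are from the first.

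No member peak held TATCGATA (beside 6.33% of optimal peaks), GGTCACAC (6.16%), CACGTG (2.47%) or CAGGTAG (0.960%), and under the strongest peak, that of mTor, none of the 7 was found. CCACTGT, which 3 of the 5 8-mers most frequent under strong summits relative to gene starts hold on either strand, was under 7.04% of all optimal peaks and 2.11% of gene starts but under none of the 13. A further set of letters, TGGCAAC, was noticed in the printed windows: it stands at the Akt promoter and in 2 copies at the replicate 1 peak of chico, beside 9.19% of optimal peaks and 7.53% of gene starts. The intronic InR peak of 222 holds an exact inverted repeat with arms of 9 bases, shown in capitals among the sequences; a repeat of at least this arm length, with up to 20 bases between its arms, was under 1 of 13 peaks, beside 6.18% of optimal peaks and 4.36% of gene starts. These matches describe letters in a window and do not show that a factor binds them.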

How the data were processed

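Per the deposited file descriptions, peak sets thresholded by IDR and ranked peak tables on dm6 were made by the authors from alignments of 2 replicates with a control, with an exclusion list for the thresholded sets; fragments measured 200 to 800 bp, per the labels. Aligner, caller and versions: not given in the sources used here. Depth is not stated either. The deposited signal is the caller's value; the deposited score is a scaled IDR; a further column deposited by the authors holds −log10 of the IDR. The deposited p-value column is empty.

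Summits on the assembled chromosomes (6148 of 6174 optimal peaks) were assigned with Ensembl release 115 without transposable elements, using Python 3.11.15, pandas 2.3.3 and NumPy 2.4.6. The assignment was checked on simulated summits. The replicate value of a peak is that of the strongest overlapping ranked peak. No test was run. All 9 genes are named with every optimal peak, other pathway genes by the 3 strongest promoter peaks per class, and 5 genes by likeness to mTor; ImpL2, RpS6 and genes without a peak were named after their values were seen. Pathway lists and genes were chosen with earlier results of these data known, and so were the letters added to the motif search and the inverted repeat. ALS and steppke among the listed names had no unambiguous match.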

Additional observations from a re-analysis of the deposited data

How the results depend on the processing

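Of 48 values recomputed under other settings, 41 stayed within 1.5 times the reported one or within the spread between peaks. The 7 promoter calls fell to 4 with a TSS window of 200 bp (24.5% of all protein-coding genes), to 4 where the peak itself had to hold a TSS (21.7%), and to 4 in the stronger 50% of the optimal peaks (20.5%). The 4330 protein-coding genes fell to 2866 in the stronger 50%, and the 13 peaks of the 9 genes to 5. The 13 peaks were 7 to 10 with 1 replicate left out. The 7 motif matches fell to 2 in a window of 100 bp. Leaving out a replicate gave 5 promoter calls, 6 genes with any peak, 24 to 28 other pathway genes and 3319 to 3688 protein-coding genes. Settings added after seeing the data gave 7 promoter calls with every ranked peak past the IDR threshold and 6 with only the strongest of overlapping peaks, where InR was lost. No paired analysis was possible because there is 1 group and no test was run. The depth of the libraries is unknown, so no interval is given.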
